A study of Mus musculus with 6 samples.

Results

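The 10 genes described here belong to the stress-response branches of ATF4, CHOP and XBP1. They are the transcription factor genes Atf4, Ddit3 (CHOP), Atf3 and Xbp1, the feedback genes Trib3 and Ppp1r15a, and the responsive genes Chac1, Asns, Sesn2 and Herpud1. They were chosen by gene symbol from a list drawn up for these pathways, with earlier results of these data known. All 10 were found among the 19505 genes measured. Expression was profiled on single-colour Affymetrix oligonucleotide arrays in B16F10, a pigmented mouse melanoma line grown in RPMI1640. The cells had received for 48 h either a change of medium alone (control), or medium with 2.5 µM or 40 µM of a compound named SQ-diEG in the title and di-sq in the labels. Each of the 3 groups had 2 arrays, and no genetic change is named for any group. Whether the 2 arrays of a group stand for separate cultures is not stated in the labels, and p-values then cover only the spread between these arrays, part of which may be technical. The groups follow the titles and treatment labels. The free-text descriptions of all 4 treated samples do not match them, that of 2.5 µM replicate 1 naming medium and those of the other 3 an agent found in no other label.

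ATF4 and XBP1 are effectors of cellular stress sensing. When kinases phosphorylate the initiation factor eIF2alpha, general protein synthesis falls while ATF4 is made from its own mRNA, and ATF4 then activates genes of amino acid supply together with Ddit3, Trib3, Chac1 and Asns. When unfolded proteins gather in the endoplasmic reticulum (ER), the sensor IRE1 removes a short intron from Xbp1 mRNA, and the spliced form encodes the active factor, which raises chaperones and ER-associated degradation. ATF4 protein and Xbp1 splicing are therefore not read by these arrays. The Xbp1 feature is assigned to both of the gene's RefSeq transcripts in the platform annotation, so the spliced and unspliced forms cannot be told apart. In pigment cells this machinery also serves the folding of melanosome proteins that pass through the ER.

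The promoters of the 10 genes were searched because several of them are known to carry a site at which ATF4 binds with C/EBP partners, the C/EBP-ATF response element (CARE). The window ran from 250 bases before to 50 bases after the start of each gene in RefSeq (build GRCm38.p6), and all 10 genes had 1 such window. The letters TGATGNAA, on either strand, occurred in the windows of 5 of the 10 genes, against 1304 of all 32851 windows (3.97%). The cyclic AMP response element TGACGTCA occurred in 1 of 10 (1.79% of all windows). The unfolded protein response element TGACGTGG (0.676% of all) and the ER stress element, CCAAT and CCACG separated by 9 bases (0.119% of all), occurred in none of the 10, which says only that these letters are not in these windows. The matches were not overlapping one another, and a match is a description of the letters and not of a bound site. The stretches before the gene start that hold a match are given 5′ to 3′ on the gene's strand, with the match in capitals.
Atf3, chr1:191183416-191183463, minus strand: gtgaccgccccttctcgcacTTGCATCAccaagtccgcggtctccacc
Chac1, chr2:119351029-119351076, plus strand: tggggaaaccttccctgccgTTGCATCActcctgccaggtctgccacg
Asns, chr6:7693210-7693252, minus strand: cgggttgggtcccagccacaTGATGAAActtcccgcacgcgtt
Herpud1, chr8:94386297-94386344, plus strand: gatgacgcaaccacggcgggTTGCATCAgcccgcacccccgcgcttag
Ppp1r15a, chr7:45526269-45526300, minus strand: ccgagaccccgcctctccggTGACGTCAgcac
The first 4 carry the CARE letters and the last the cyclic AMP response element. Atf3, Chac1 and Herpud1 hold the same 8 letters TTGCATCA, the CARE read on the other strand. The fifth CARE match, in Trib3, lay 14 to 21 bases after the gene start and is not shown. The 4 genes Atf3, Chac1, Asns and Herpud1, which share these letters before their starts, did not all follow 1 profile over the arrays, as their values in the later paragraphs show.

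Both treated arrays numbered 1 differed from the other 4 in their spiked hybridisation controls. These averaged 10.4 (2.5 µM) and 10.3 (40 µM) in log2 units, compared with 10.8 to 11.2 elsewhere, and both are called the low arrays. Spiked poly-A controls averaged 5.65 and 5.63 on the low arrays, and 6.35 and 6.39 on the medium controls. On the treated replicates 2 they were higher, 6.79 at 2.5 µM and 7.42 at 40 µM. The other 4 arrays were thus not alike, and 40 µM replicate 2 was the highest on both kinds of spike. The deposited values are log2 expression after robust multi-array averaging, and array medians lay between 5.92 and 5.98. The interquartile range over genes was wider on the low arrays, 5.20 at 2.5 µM and 5.43 at 40 µM, than on the others, 4.90 to 4.94. Background was measured by 5222 negative control features, whose 95th percentile averaged 9.94 over the arrays. Of 8 melanocyte markers, 7 had means above it, Dct, Tyrp1 and Pmel among them, whereas Gpr143 lay between 7.79 and 8.33. None of the measured markers of fibroblasts (7), leukocytes (6), keratinocytes (8) or endothelium (8) had a mean above it. Of the 10 genes, Atf4, Ddit3, Atf3, Xbp1, Trib3, Asns and Herpud1 lay above the background of their own array on all 6 arrays, and Chac1 only on 40 µM replicate 1. Sesn2 and Ppp1r15a lay below it on all 6, so their values are not clearly above background. The number of arrays limits the precision of every comparison.

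None of the 10 genes passed the test across all genes in any of the 3 comparisons (limma, Benjamini-Hochberg adjusted p under 0.05). No other gene did either, so 0% of the 19505 genes were called. At 40 µM against control, the arrays of both groups did not overlap for 7 of the 10 genes. Atf4, Atf3, Xbp1, Chac1 and Ppp1r15a were higher (22.2% of all genes were) and Trib3 and Sesn2 lower (26.3% of all genes). At 2.5 µM, 3 genes were higher on both arrays than on both controls (27.1% of all genes), namely Atf4, Atf3 and Asns. Another 3, Ddit3 (on its feature of higher mean only), Trib3 and Sesn2, were lower (25.9% of all genes). The log2 changes of these 6 at 2.5 µM ranged from 0.07 for Atf4 to 0.68 for Atf3 in size, and that of Asns was 0.35.

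**Figure D1:**
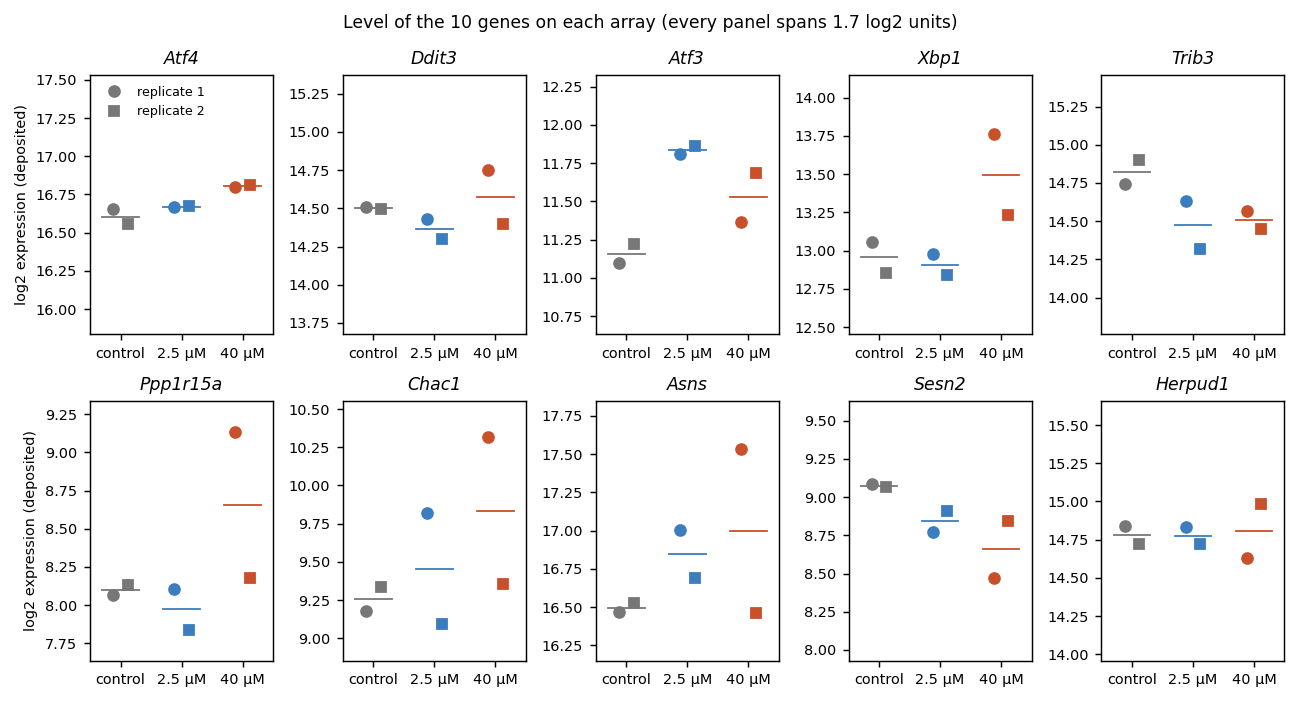
Deposited log2 expression (vertical axis) of each of the 10 genes on the 6 arrays, by group (horizontal axis). Circles are replicate 1, squares replicate 2 and bars group means, and each panel spans 1.7 log2 units; Ppp1r15a, Chac1 and Asns are widely spread at 40 µM, whereas both Atf4 arrays there lie at 16.80 and 16.81.

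Atf4, the factor translated when eIF2alpha is phosphorylated, varied least among the 10. Its log2 expression was 16.65 and 16.56 on the control arrays, 16.67 and 16.68 at 2.5 µM, and 16.80 and 16.81 at 40 µM. The groups followed one another without overlap in the order of dose. All 6 arrays nevertheless lay within 0.25, and control and 2.5 µM differed by less than the gap between the controls. The log2 change at 40 µM was 0.20 with a standard error of 0.14 (limma, adjusted p = 0.574), a fold of 1.15. Its 95% confidence interval ran from -0.14 to 0.54. After further quantile normalization the change was 0.089. At 2.5 µM it was 0.07 with 0.14 (limma, adjusted p = 0.903). ATF4 protein was not measured. Over the 6 arrays the genes most like Atf4, among 4146 others above background, were Cltc, Rhbdd1 and Brap. The root mean square difference of their centred log2 values from Atf4 was 0.037, 0.040 and 0.041.

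Ddit3 encodes CHOP, the factor at the proapoptotic end of prolonged ER stress. It lay at 14.51 and 14.49 in control, 14.43 and 14.30 at 2.5 µM, and 14.75 and 14.40 at 40 µM. Both arrays at 2.5 µM were below both controls, and the 40 µM arrays lay on either side of them. The log2 change was 0.08 with a standard error of 0.18 at 40 µM (limma, adjusted p = 0.878; 95% confidence interval from -0.36 to 0.51) and -0.14 with 0.18 at 2.5 µM (limma, adjusted p = 0.829). Without 40 µM replicate 1 the change at 40 µM was -0.10. A second feature, annotated to another Ddit3 transcript, lay at 12.87 and 12.93 in control, 12.95 and 12.88 at 2.5 µM, and 13.60 and 12.95 at 40 µM. On that feature both 40 µM arrays were above both controls, replicate 2 only just, and the log2 change was 0.37 with a standard error of 0.24 (limma, adjusted p = 0.532). The features thus differed in whether the 40 µM arrays overlapped the controls. They differed at 2.5 µM too, where the arrays overlapped the controls on the second feature and not on the first. The genes most like the first feature over the 6 arrays were Aftph, Ecd and Gltp, with root mean square differences of 0.030, 0.037 and 0.042.

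Atf3, a stress-inducible factor of the same bZIP family and also an immediate early gene, was the member with the largest difference at the lower dose. It lay at 11.10 and 11.22 in control, 11.81 and 11.86 at 2.5 µM, and 11.37 and 11.69 at 40 µM. The order was thus control, 40 µM, 2.5 µM, with no overlap between any of the groups. The log2 change at 2.5 µM was 0.68 with a standard error of 0.20, a fold of 1.60. The unadjusted p of 0.0102 placed it among the 4.24% of genes higher at an unadjusted p under 0.05, and over all genes it did not pass (limma, adjusted p = 0.479). The 95% confidence interval ran from 0.22 to 1.14. The difference from the control mean was 0.65 on replicate 1, a low array, and 0.70 on replicate 2. No gene of the 10 was lower at 2.5 µM at an unadjusted p under 0.05 (5.38% of all genes were). At 40 µM the change was 0.37 with 0.20 (limma, adjusted p = 0.468), 0.53 without replicate 1, 0.21 without replicate 2 and 0.24 after further quantile normalization, and 40 µM against 2.5 µM gave -0.31 with 0.20 (limma, adjusted p = 0.868). Atf3 was thus lower at 40 µM than at 2.5 µM without passing the test. Between arrays of equal number the differences were -0.44 and -0.18, though nothing in the labels pairs these arrays.

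Xbp1, whose spliced mRNA encodes the active factor of the IRE1 branch, was the member with the smallest p at 40 µM. It lay at 13.06 and 12.86 in control, 12.98 and 12.84 at 2.5 µM, and 13.76 and 13.23 at 40 µM. Both 40 µM arrays were above the other 4, and the 2.5 µM arrays overlapped the controls. The log2 change at 40 µM was 0.54 with a standard error of 0.22, a fold of 1.46 (limma, unadjusted p = 0.0463, adjusted p = 0.409). It was 0.27 without 40 µM replicate 1, a low array, and 0.81 without replicate 2. Higher genes with an unadjusted p under 0.05 made up 5.18% of all genes in this comparison, and Xbp1 was the only one of the 10. Against 2.5 µM the change was 0.59 with 0.22 (limma, unadjusted p = 0.0338, adjusted p = 0.854), where 2.34% of all genes were higher at that level. Xbp1 was again the only one of the 10, and none was lower (3.28% of all genes). At 2.5 µM against control it was -0.05 with 0.22 (limma, adjusted p = 0.957; 95% confidence interval from -0.58 to 0.48). The difference between the doses was 0.79 between the replicates 1 and 0.39 between the replicates 2, which the labels do not pair. Over the 6 arrays the genes most like Xbp1 were Serp1, Farsb and Usp4, with root mean square differences of 0.072, 0.080 and 0.085. Serp1 lay at 12.68 and 12.62 in control, 12.52 and 12.55 at 2.5 µM, and 13.47 and 12.93 at 40 µM.

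The feedback genes lay on different sides of control at 40 µM, a contrast that was not tested. Trib3 encodes a pseudokinase that is induced by ATF4 and CHOP and restrains them. It lay at 14.74 and 14.90 in control, 14.63 and 14.32 at 2.5 µM, and 14.57 and 14.45 at 40 µM. All 4 treated arrays were below both controls, and the doses overlapped. The log2 change was -0.35 with a standard error of 0.18 at 2.5 µM (limma, adjusted p = 0.571) and -0.31 with 0.18 at 40 µM (limma, adjusted p = 0.506). Ppp1r15a encodes GADD34, the subunit that directs a phosphatase to eIF2alpha. It lay at 8.07 and 8.13 in control, 8.11 and 7.84 at 2.5 µM, and 9.13 and 8.18 at 40 µM, all below the background measure. Replicate 1 at 40 µM was above the other 5 arrays by a wide margin, and replicate 2 lay just above the higher control. The log2 change at 40 µM was 0.56 with 0.33 (limma, adjusted p = 0.507). It was 0.08 without 40 µM replicate 1 and 1.03 without replicate 2.

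**Figure D2:**
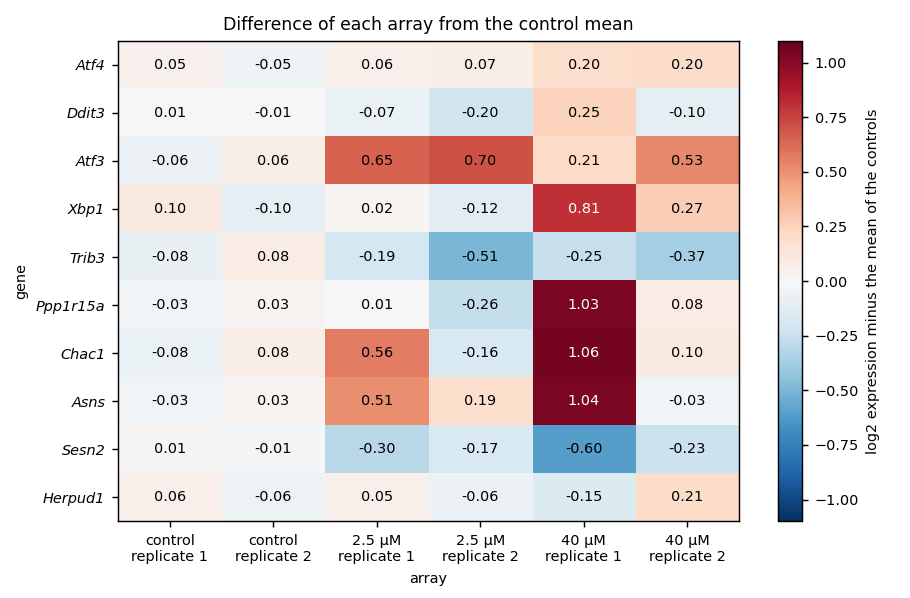
Log2 expression of each gene (rows) on each array (columns) minus the mean of the 2 controls, with the value printed in each cell and red for higher, blue for lower. Chac1, Asns and Ppp1r15a are higher by 1.03 to 1.06 on 40 µM replicate 1 and by at most 0.10 on replicate 2. Atf4 and Atf3 are higher and Trib3 and Sesn2 lower on all 4 treated arrays, and the share of all genes with such an order was not counted.

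Of the responsive genes, Chac1 and Asns were high on the low arrays. Chac1, an enzyme that degrades glutathione and a sensitive ATF4 target, lay at 9.18 and 9.33 in control, 9.82 and 9.09 at 2.5 µM, and 10.31 and 9.36 at 40 µM. Both low arrays were above both controls, and the other treated arrays lay close to control. Asns, the asparagine synthetase, lay at 16.47 and 16.52 in control, 17.00 and 16.69 at 2.5 µM, and 17.53 and 16.46 at 40 µM. It too was highest on the low arrays, and 40 µM replicate 2 was the lowest of all 6. The log2 changes at 40 µM were 0.58 with a standard error of 0.37 for Chac1 (limma, adjusted p = 0.535) and 0.50 with 0.33 for Asns (limma, adjusted p = 0.541). At 2.5 µM, where both Asns arrays were above both controls, its change was 0.35 with 0.33 (limma, adjusted p = 0.747), and 0.0045 with the low arrays as a block. Without 40 µM replicate 1 the changes at 40 µM were 0.10 and -0.03, and without replicate 2 they were 1.06 and 1.04. Housekeeping genes moved with the same arrays, the median of 12 against the control mean being 0.17 and 0.50 on the low arrays at 2.5 µM and 40 µM, and -0.03 and -0.11 on the replicates 2 of those doses. The part of the array difference in these values was not tested.

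Sesn2 encodes sestrin 2, an inhibitor of mTORC1 induced by ATF4 and by p53. It lay at 9.09 and 9.06 in control, 8.77 and 8.91 at 2.5 µM, and 8.47 and 8.84 at 40 µM. All 4 treated arrays were below both controls, on values below the background measure. The log2 change was -0.42 with a standard error of 0.22 at 40 µM (limma, adjusted p = 0.462), -0.23 there without replicate 1, and -0.24 with 0.22 at 2.5 µM (limma, adjusted p = 0.744). Herpud1 encodes an ER membrane protein of ER-associated degradation. It lay at 14.84 and 14.72 in control, 14.83 and 14.72 at 2.5 µM, and 14.63 and 14.99 at 40 µM. The 40 µM arrays lay below and above all the others. The log2 change was 0.03 with 0.18 at 40 µM (95% confidence interval from -0.41 to 0.46) and -0.0042 with 0.18 at 2.5 µM (from -0.44 to 0.43), so a rise of more than 0.46 lay outside the intervals at both doses.

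**Figure D3:**
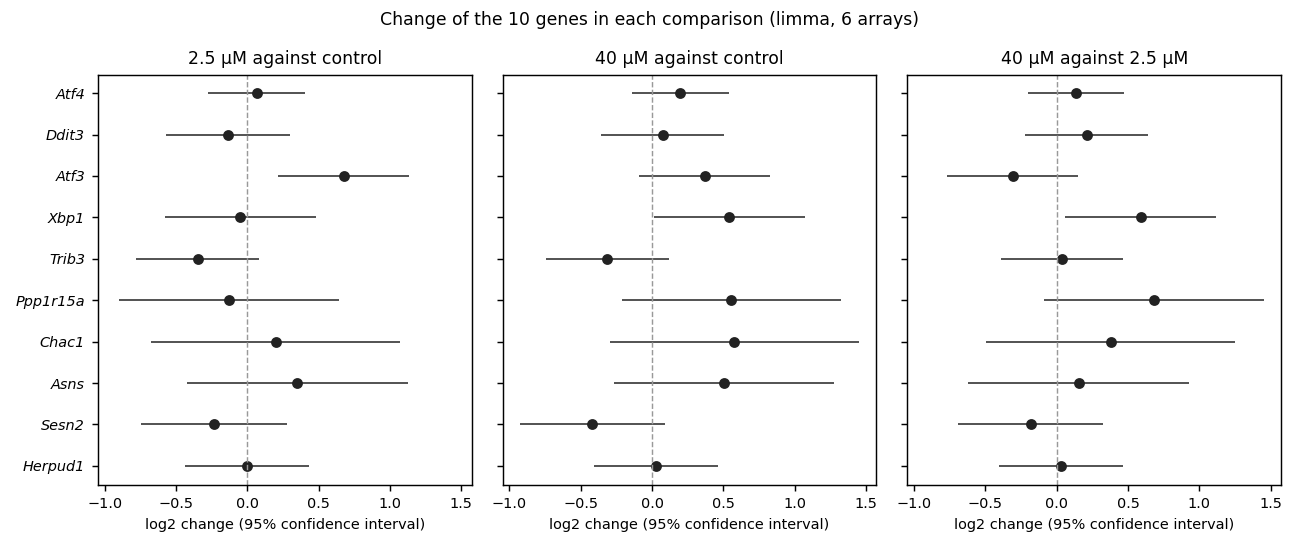
Log2 change (points) with its 95% confidence interval (lines, limma on 6 arrays) of each gene in the 3 comparisons, on a shared horizontal axis with 0 dashed. The intervals leave out 0 only for Atf3 at 2.5 µM against control, from 0.22 to 1.14, and for Xbp1 at 40 µM, from 0.01 to 1.07 against control and from 0.06 to 1.12 against 2.5 µM; these intervals are not adjusted for the number of genes.

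Seen as a set, 8 of the 10 genes had a log2 change above 0 at 40 µM (48.7% of all genes did). Their median was 0.28 against -0.01 for all genes. All genes are mostly of lower level, 4147 of 19505 having means above the background measure against 7 of the 10. Of 12 housekeeping genes, 9 were likewise higher at 40 µM, with a median of 0.13. The median of the 10 was 0.16 both after further quantile normalization and with the low arrays as a block, and 0.089 without 40 µM replicate 1. At 2.5 µM it was 4 of 10 (51.2% of all genes), with a median of -0.03 against 0.01. With the low arrays as a block the median of the 10 at 2.5 µM was -0.16. Against 2.5 µM, 8 of 10 were higher at 40 µM (49.6% of all genes), with a median of 0.14. There 3 of the 10, Atf4, Xbp1 and Ppp1r15a, were higher without overlap (12.4% of all genes) and 1, Atf3, lower (16.3%). The comparisons share arrays, so these counts are not independent of each other. The median of the 10 at 40 µM was 0.23 on replicate 1 and 0.09 on replicate 2. On replicate 2 alone, 6 of the 10 lay above both controls (40.7% of all genes) and 4 below (43.1%). On replicate 1 it was 7 above (40.8%) and 3 below (47.2%). At 2.5 µM, replicate 1 had 4 above (43.2%) and 3 below (42.4%), and replicate 2 had 3 above (42.9%) and 7 below (41.2%). Without 40 µM replicate 2, Xbp1, Asns and Ppp1r15a passed as higher (limma, adjusted p = 0.0334, 0.0209 and 0.0347), while 2235 of all genes passed and the single array left at 40 µM was assumed to have the spread of control and 2.5 µM. Without both low arrays, Atf4 and Atf3 passed as higher and Trib3 as lower (limma, adjusted p = 0.0465, 0.00879 and 0.0150), while 3749 of all genes passed with an error taken from the 2 controls alone. None of the 10 passed in both of these fits.

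The rest of the pathway was read from 4 lists, also chosen with earlier results of these data known. Of 22 listed eIF2alpha kinases, ER stress sensors and genes of eIF2 control, 20 were measured, and at 40 µM 12 of them were higher (48.7% of all genes), with a median of 0.18 on the log2 scale. The median was 0.074 without 40 µM replicate 1, 0.11 without replicate 2 and 0.072 after further quantile normalization. At an unadjusted p under 0.05, 2 were higher (5.18% of all genes) and none lower (6.86%). None passed over all genes (limma, smallest adjusted p = 0.349). Creb3, an ER-resident bZIP factor, was at 10.47 and 10.37 in control, 10.61 and 10.74 at 2.5 µM, and 11.27 and 10.90 at 40 µM, so that its log2 change was 0.67 (standard error 0.21). Both 40 µM arrays were above the other 4. Eif2b3, Eif2b4 and Eif2b1, subunits of the exchange factor that recharges eIF2, had changes of 1.02, 0.56 and 0.64 at 40 µM on means below the background measure. Of the sensors, 3 that were picked for their role after the values were seen lay closer to control at 40 µM. Eif2ak3 (PERK) had -0.18 with 0.20, Ern1 (IRE1) -0.12 with 0.21 and Atf6 -0.0047 with 0.23. At 2.5 µM Eif2ak3 had -0.20, Ern1 0.13 and Atf6 0.35, with the same standard errors. There both Eif2ak3 arrays were below both controls, both Atf6 arrays were above them, and the Ern1 arrays overlapped them.

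Of 39 other ATF4 targets, 36 were measured. Of these, 26 were higher at each dose (48.7% of all genes at 40 µM and 51.2% at 2.5 µM), with medians of 0.11 at 40 µM and 0.13 at 2.5 µM. At 40 µM 9 were higher without overlap (22.2% of all genes) and 7 lower (26.3%), and at 2.5 µM 17 were higher (27.1%) and 8 lower (25.9%). None passed over all genes (limma, smallest adjusted p = 0.384 and 0.522). At an unadjusted p under 0.05, none was higher at 40 µM (5.18% of all genes) and 1 was lower (6.86%). That was Slc7a3, a cationic amino acid transporter, with -0.66 between background values. Slc7a11, the cystine transporter, lay at 15.07 and 15.13 in control, 14.97 and 14.95 at 2.5 µM, and 15.33 and 15.59 at 40 µM. It was below both controls at the lower dose and above them at the higher, with log2 changes of -0.14 and 0.36 and a standard error of 0.17. Pck2, the mitochondrial phosphoenolpyruvate carboxykinase, was higher by similar amounts at both doses, 0.38 at 2.5 µM and 0.39 at 40 µM with 0.18. Aldh1l2, a mitochondrial folate enzyme, had -0.40 with 0.20 at 40 µM. Without 40 µM replicate 1 the list's median at 40 µM was 0.02, with 18 of 36 higher, and it was 0.02 after further quantile normalization and 0.059 with the low arrays as a block, where the median at 2.5 µM was 0.046.

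Of 37 listed targets of XBP1 and ATF6, most of them ER chaperones, transport and degradation factors, 35 were measured. At 40 µM 31 of these were higher, and the list's median was 0.49 on the log2 scale. This compares with 48.7% of all genes higher. The arrays of 25 lay above both controls without overlap (22.2% of all genes) and those of 1 below (26.3%), and 14 were higher at an unadjusted p under 0.05 (5.18% of all genes) and none lower (6.86%). None passed over all genes (limma, smallest adjusted p = 0.334). Because the list was chosen with earlier results of these data known, its shares are a description and not a test. At 2.5 µM 24 of 35 were higher (51.2% of all genes), with a median of 0.18 that was 0.0064 with the low arrays as a block, and 1 was higher at an unadjusted p under 0.05 (4.24% of all genes). Against 2.5 µM, the median difference was 0.44 between the replicates 1, with 28 of 35 higher. It was 0.36 between the replicates 2, with 30 higher, and the labels do not pair these arrays. Without 40 µM replicate 1 the median against control was 0.35, with 32 of 35 higher, on the 1 array left at that dose. It was 0.36 after further quantile normalization and 0.35 with the low arrays as a block, each with 29 of 35 higher. How far array differences enter these values was not tested. Xbp1 itself, with 0.54, lay near the middle of this list.

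**Figure D4:**
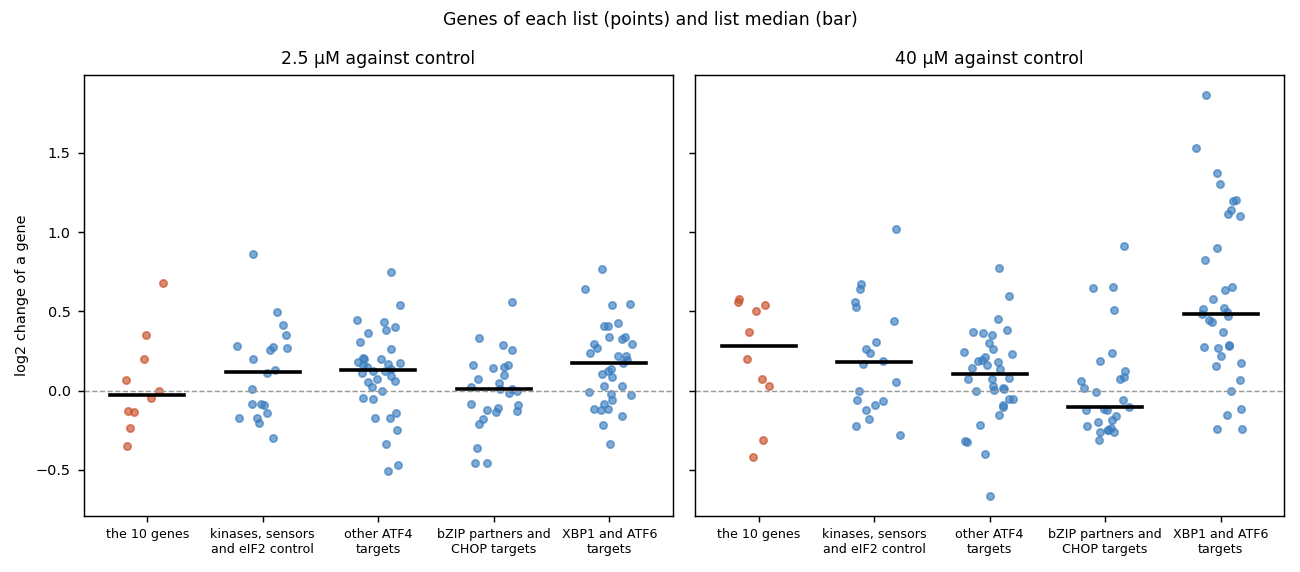
Log2 change (vertical axis) of each gene (points) in the 10 genes and in the 4 pathway lists (horizontal axis), at 2.5 µM and at 40 µM against control, with bars at the medians. At 40 µM the XBP1 and ATF6 targets have the highest median, 0.49, while the other ATF4 targets, at 0.11, and the bZIP partners and CHOP targets, at -0.10, lie near 0. Means above the background measure were held by 25 of 35, 27 of 36 and 9 of 27 genes of these lists, in that order.

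Among the XBP1 and ATF6 targets, Pdia3, a disulfide isomerase, lay at 15.13 and 15.08 in control, 15.48 and 15.40 at 2.5 µM, and 16.45 and 16.16 at 40 µM. Each group was separate from the next. Its log2 change was 1.20 with a standard error of 0.17 at 40 µM (limma, adjusted p = 0.334). Hsp90b1, the ER chaperone GRP94, was at 16.23 on both controls, 16.70 and 16.61 at 2.5 µM, and 18.06 and 17.00 at 40 µM, a change of 1.30 with 0.32. Dnajb11, a cochaperone of BiP, lay at 9.32 and 9.57 in control, 10.16 and 9.55 at 2.5 µM, and 11.22 and 10.42 at 40 µM. Its change was 1.37 with 0.33, from control values below the background of their own arrays. Sec24d, of the coat of vesicles that leave the ER, had 1.19 with 0.26 on means below the background measure. These 4 had the smallest p of the list at 40 µM and were named for that, so they do not stand for the list as a whole.

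Of 28 bZIP partners and CHOP targets, 27 were measured, and only 9 of these had means above the background measure. At 40 µM 11 were higher (48.7% of all genes), with a median of -0.10, and at 2.5 µM 14 were higher (51.2%), with a median of 0.01. The median at 40 µM was 0.0089 without replicate 1 and -0.040 without replicate 2. At 40 µM, 2 of 27 were higher at an unadjusted p under 0.05 (5.18% of all genes), a count near the background, and none lower (6.86%). Trib2, a pseudokinase related to Trib3, and Sesn1, a sestrin related to Sesn2, had log2 changes of 0.91 with a standard error of 0.27 and 0.65 with 0.22, both between values below the background measure. Atf1, a bZIP factor of the CREB group, had 0.51 with 0.22, and Sesn3 had -0.31 with 0.19. None passed over all genes (limma, smallest adjusted p = 0.349).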

How the data were processed

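Expression was measured on 6 arrays of B16F10 cells. The authors deposited log2 expression values. The submitters' processing notes list RMA together with Affymetrix Expression Console and Transcriptome Analysis Console, and no versions, filters or build. RMA is meant to remove differences in total signal between arrays, yet the deposited arrays still differed in distribution. Genes above the background of their own array numbered 4362 and 4566 on the low arrays and 3939 to 4013 on the others. Between 259 and 269 features per array exceeded 16, the log2 maximum of a 16-bit image, so a step in the scale is unknown and folds are on the deposited scale.

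Of 28846 features, 6640 were controls and 19572 had 1 symbol in the platform annotation. Where a gene had several features (55 genes), the one with the highest mean was kept, which left 19505 genes, unfiltered by level. limma 3.58.1 (R 4.3.3) fitted the 3 group means to all 6 arrays without covariates, its variance prior following the level (3 residual degrees of freedom, prior 4.11). Tests were two-sided, and p-values were adjusted by Benjamini-Hochberg over all genes, with a threshold of 0.05. The fit was tested on simulated data.

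The 10 genes and the lists were chosen with earlier results of these data known. Named besides the 10 were the 4 genes of each pathway list with the smallest p at 40 µM and, for Atf4, Ddit3 and Xbp1, the 3 genes closest in profile. Outside this rule, Eif2ak3, Ern1 and Atf6 were named for their role after the values were seen, as were the markers Dct, Tyrp1, Pmel and Gpr143. Of 181 listed genes 167 were measured, 4 through another symbol. Alternatives were the variance prior, a further quantile normalization, a filter on level, the mean of a gene's features, the replicate number or the low arrays as a block, and leaving out arrays. The other Ddit3 feature was added after seeing the data.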

Additional observations from a re-analysis of the deposited data

How the results depend on the processing

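No gene of the 10 and no other gene passed in any comparison with the variance prior without trend, further quantile normalization, only genes at or above the median level, the mean of a gene's features or the replicate block (limma). With the low arrays as a block, 1 gene outside the 10 passed at 40 µM against 2.5 µM. Without both low arrays 3749 genes passed at 40 µM against control (3 of the 10), 3991 at 2.5 µM (3 of the 10: Atf3 and Asns higher, Trib3 lower) and 2965 at 40 µM against 2.5 µM (1 of the 10, Xbp1), with 1 residual degree of freedom, the lone arrays being assumed to vary like the controls. Leaving out single arrays gave 0 to 2235 genes and 0 to 3 of the 10 at 40 µM against control, the highest without 40 µM replicate 2, and 0 in the other comparisons.

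Of 393 log2 changes of the 10 genes under alternatives, 27 turned sign, none of them past the threshold, and 10 passed it. At 40 µM against control, Herpud1 turned to -0.049 after quantile normalization, Ddit3 to -0.045 with the low arrays as a block and to -0.10 without them, and Asns to -0.032 without them. At 2.5 µM, Chac1 turned to -0.22 with the block and to -0.16 without the low arrays, Herpud1 to 0.056 with the block, and Ddit3 to 0.016 on its other feature. Asns turned to -0.23 at 40 µM against 2.5 µM without the low arrays. Leaving out single arrays gave ranges that crossed 0. At 40 µM against control these were -0.10 to 0.25 for Ddit3, -0.032 to 1.04 for Asns and -0.15 to 0.21 for Herpud1. At 2.5 µM they were -0.16 to 0.56 for Chac1, -0.15 to 0.053 for Xbp1, -0.064 to 0.056 for Herpud1 and -0.26 to 0.0085 for Ppp1r15a. Between the doses they were -0.12 to 0.19 for Trib3, -0.38 to 0.69 for Asns, -0.15 to 0.21 for Herpud1, -0.10 to 0.86 for Chac1 and -0.37 to 0.00215 for Sesn2. The cause was not tested.

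Nothing in the labels ties equal replicate numbers to a shared batch. Deviations from the group means correlated across genes at 0.39 between replicates 1 of both doses and at -0.0045 and -0.012 with control replicate 1. With 2 arrays a group, the deviations of the replicates 2 mirror those of the replicates 1 and give the same correlations. The values therefore cannot tell which array of a group departs. Both doses thus shared a split between their replicates, with the low arrays on 1 side, which the controls did not share. The numbers were not taken to pair all 3 groups. The replicate block left the log2 changes as they were, with 0 genes passing (smallest adjusted p = 0.288, 0.409 and 0.793 among the 10 in the 3 comparisons).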
